A study of Homo sapiens with 8 samples.

Results

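The genes described here are 10 regulators and targets of the integrated stress response, namely ATF4, ATF5, DDIT3, DDIT4, TRIB3, CHAC1, PPP1R15A, ASNS, NUPR1 and VLDLR. Every probe set whose annotation names exactly 1 of these symbols was taken, which gave 13 probe sets of the 22215 that measure transcripts, and 10 genes of 11963. The pathway was selected on its diclofenac against DMSO intensities on these same arrays, so the diclofenac changes of its genes are given as a description with no test. Differences between the cell lines, and between the diclofenac changes of the lines, are other contrasts of the same arrays and were tested, with earlier results of these data known.

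The groups were HL-60 cells with diclofenac, HL-60 cells with DMSO, THP-1 cells with diclofenac and THP-1 cells with DMSO, with 2 arrays titled as biological replicates in each. HL-60 is a cell line labelled promyelocytic leukemia and THP-1 a cell line labelled monocytic leukemia, and both were grown in RPMI-1640 medium with 10% fetal bovine serum. Diclofenac, a nonsteroidal drug that blocks cyclooxygenase enzymes, was given at 100 µM for 48 h, and the solvent DMSO stood as its control. Each line is 1 line, so a difference between them is a difference between these lines and not between types of leukemia. Errors and p-values rest on 1 moderated spread per probe set, pooled over the replicate cultures of all 4 groups. A change in 1 line thus carries the scatter of the other line too.

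One array, THP-1 DMSO replicate 2, was unlike the rest. On it 50.3% of probe sets exceeded the background, which is the level that 95% of the 27 unspiked bacterial control probe sets stay under, against 66.4% to 72.1% on the other arrays. Its background was 239 intensity units, against 33.2 to 60.2, and it correlated with THP-1 DMSO replicate 1 at 0.898 where the other replicate pairs reached 0.977 to 0.984. THP-1 changes are therefore given with and without it. Of the markers of the labelled cell types, all 7 granule genes exceeded the background on both HL-60 diclofenac arrays and 6 of 7 on both HL-60 DMSO arrays. MPO, the myeloperoxidase of promyelocyte granules, had only 61.2 and 57.8 units in HL-60 with diclofenac, and 41.7 and 40.6 with DMSO, which is below background. The granule genes AZU1, PRTN3 and MS4A3 and the myeloid factor IRF8 passed the test as higher in THP-1 than in HL-60 under both treatments and CTSG and the monocyte lectin FCN1 as lower, while ELANE and CSF1R passed as higher with DMSO only and CD14 with diclofenac only. CTSG, a granule protease, was also lower with diclofenac in THP-1 (-0.53 ± 0.06, limma adjusted p = 0.035). That call was lost under median centring (-0.03, 0.99), on the deposited scale (-0.38, 0.56), with the replicate block (adjusted p = 0.059), with no intensity trend (0.45) and with THP-1 fitted alone (0.36), and without any 1 of the 4 HL-60 or 2 THP-1 diclofenac arrays (0.10 to 0.47). The monocyte coreceptor CD14 reached 332.9 and 310.5 units in THP-1 with diclofenac and 55.6 and 45.2 with DMSO, and was at or below 28.9 in HL-60. T cell, B cell, erythroid and fibroblast markers summed to 139 to 849 units on the HL-60 arrays and 114 to 1175 on the THP-1 arrays, the upper end on THP-1 DMSO replicate 2. On both arrays of a group 1 to 3 of 6 measured T cell genes, 1 to 4 of 4 B cell genes, 1 to 3 of 4 erythroid genes and 1 to 3 of 6 fibroblast genes exceeded the background. CD3G, TRAT1, ALAS2 and LUM did so on no array, whereas PAX5 and HBB did on all 8, and the part of other cells in the results was not tested.

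In the integrated stress response, kinases that sense unfolded proteins, amino acid shortage, heme deficiency or viral RNA phosphorylate the translation factor eIF2. General translation then drops while the mRNAs of ATF4 and ATF5 are translated better, and ATF4 with bZIP partners such as the C/EBP proteins turns on genes of amino acid supply, redox balance and, under lasting stress, cell death. ATF4 itself is thus controlled largely at translation, which an expression array does not measure. Asparagine supply, one of its outputs, matters in leukemia, where the enzyme asparaginase is used as a drug.

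Promoter windows of the reference genome were searched because ATF4 binds a composite C/EBP-ATF element in the genes it controls. RefSeq windows of GRCh38.p14 with 250 bases before a start site and 50 after were found for 9 of the 10 genes, NUPR1 being the other, 16 windows in all. The composite core TGATGNAA on either strand was in windows of 2 genes, ASNS and CHAC1, and it is in 3.62% of all 35116 windows and in 4.46% of all 27305 genes. The cyclic AMP response element TGACGTCA, which bZIP dimers bind, was in the window of PPP1R15A, and in 1.85% of all windows. The ER stress element, CCAAT and CCACG with 9 bases between them, was in none of these 16 windows, and in 0.0769% of all windows. The 3 upstream sequences that hold a match are shown 5′ to 3′ on the strand of the gene, with the match in capitals. The ASNS stretch lies at chr7:97872409-97872658 on the minus strand with its match at -68 to -61 from the start site, that of CHAC1 at chr15:40953221-40953470 on the plus strand with its match at -209 to -202, read on the opposite strand, and that of PPP1R15A at chr19:48872171-48872420 on the plus strand with its match at -58 to -51. These 3 matches are in different windows, and a match says only that the letters are there.
ASNS: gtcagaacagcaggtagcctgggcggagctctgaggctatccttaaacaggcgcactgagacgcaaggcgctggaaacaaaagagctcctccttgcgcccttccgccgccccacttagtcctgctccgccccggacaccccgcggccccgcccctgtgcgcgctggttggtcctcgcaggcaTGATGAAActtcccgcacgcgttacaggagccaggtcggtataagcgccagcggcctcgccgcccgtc
CHAC1: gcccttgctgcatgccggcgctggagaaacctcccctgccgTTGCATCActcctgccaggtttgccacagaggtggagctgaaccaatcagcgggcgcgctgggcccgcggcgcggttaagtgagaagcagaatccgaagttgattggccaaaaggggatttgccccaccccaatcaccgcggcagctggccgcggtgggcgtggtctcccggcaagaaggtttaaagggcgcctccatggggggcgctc
PPP1R15A: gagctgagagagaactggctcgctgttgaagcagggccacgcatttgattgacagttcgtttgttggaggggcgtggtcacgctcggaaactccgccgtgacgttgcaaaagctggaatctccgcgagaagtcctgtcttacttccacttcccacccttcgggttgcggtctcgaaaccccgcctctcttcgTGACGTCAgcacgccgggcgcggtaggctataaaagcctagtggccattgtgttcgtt

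All intensities below are the deposited linear values of a probe set, and are set against the same probe set only. ATF4, the transcription factor at the centre of the response, was bright on every array. Its probe set 200779_at read 4981.5 and 5963.8 in HL-60 with diclofenac, against 3148.1 and 3164.8 in HL-60 with DMSO. THP-1 cells gave 6648.2 and 6575.6 with diclofenac, against 5485.2 and 5386.1 with DMSO. Both diclofenac arrays lay above both DMSO arrays in each line on the deposited scale, and HL-60 with DMSO was the lowest group. After quantile normalization the log2 change, diclofenac minus DMSO, was 0.71 ± 0.13 in HL-60 (SE, 2 arrays per group, as for every change below). It was 0.13 ± 0.13 in THP-1, where the normalized ranges overlapped, and 0.35 ± 0.10 without THP-1 DMSO replicate 2 but -0.08 without replicate 1. With all arrays the HL-60 and THP-1 changes were 0.78 and 0.28 on the deposited scale, and 0.94 and 0.63 under median centring. On quantile normalized values the groups ran, high to low, THP-1 diclofenac, THP-1 DMSO, HL-60 diclofenac and HL-60 DMSO. Of these neighbours only the last pair did not overlap. These are bulk RNA extracts, in which a change in the share of cells that express a gene and a change in RNA per cell cannot be told apart.

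DDIT3, also called CHOP, is a bZIP factor that ATF4 induces and that drives genes of stress-related death. Its probe set 209383_at read 327.7 and 125.3 in HL-60 with diclofenac, against 166.9 and 152.8 with DMSO. In THP-1 the readings were 371.4 and 343.7 with diclofenac, against 251.9 and 561.1 with DMSO. The groups overlapped in both lines, and the replicates lay far apart: HL-60 diclofenac replicate 1 was above replicate 2, and THP-1 DMSO replicate 2 was the highest of all 8 arrays. On the log2 scale the difference was 0.41 ± 0.38 for HL-60 and -0.02 ± 0.38 for THP-1, or 0.37 ± 0.39 when DMSO replicate 2 was left out. The HL-60 difference was -0.07 without diclofenac replicate 1 and 0.87 without replicate 2, and the THP-1 one -0.39 without DMSO replicate 1. With all arrays the THP-1 value was 0.28 under median centring, so its sign turned with the scaling.

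ATF5, a relative of ATF4 whose mRNA is also translated better under stress and which serves the mitochondrial stress response, had 3 probe sets that disagreed. The first, 204998_s_at, read 405.6 and 410.9 in HL-60 with diclofenac, against 547.5 and 424.0 with DMSO. For THP-1 the values were 300.7 and 282.6 with diclofenac, against 146.7 and 478.1 with DMSO, the 2 DMSO arrays lying on either side of the diclofenac arrays. HL-60 with diclofenac was thus just below HL-60 with DMSO, and THP-1 overlapped. HL-60 had a log2 change of -0.17 ± 0.32 and THP-1 of 0.18 ± 0.32, the second being 0.72 ± 0.19 when DMSO replicate 2 was left out and -0.32 when replicate 1 was. Probe set 204999_s_at read 172.0 and 197.4 in HL-60 with diclofenac, against 207.5 and 99.5 with DMSO, and 152.4 and 138.7 in THP-1 with diclofenac, against 142.0 and 140.6 with DMSO. Its groups overlapped in both lines, with changes of 0.35 ± 0.40 and 0.38 ± 0.40, the THP-1 value being -0.06 ± 0.33 without DMSO replicate 2. Probe set 217389_s_at exceeded the background on 1 array only, HL-60 DMSO replicate 1 at 88.3, so no fold is given for it.

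**Figure D1:**
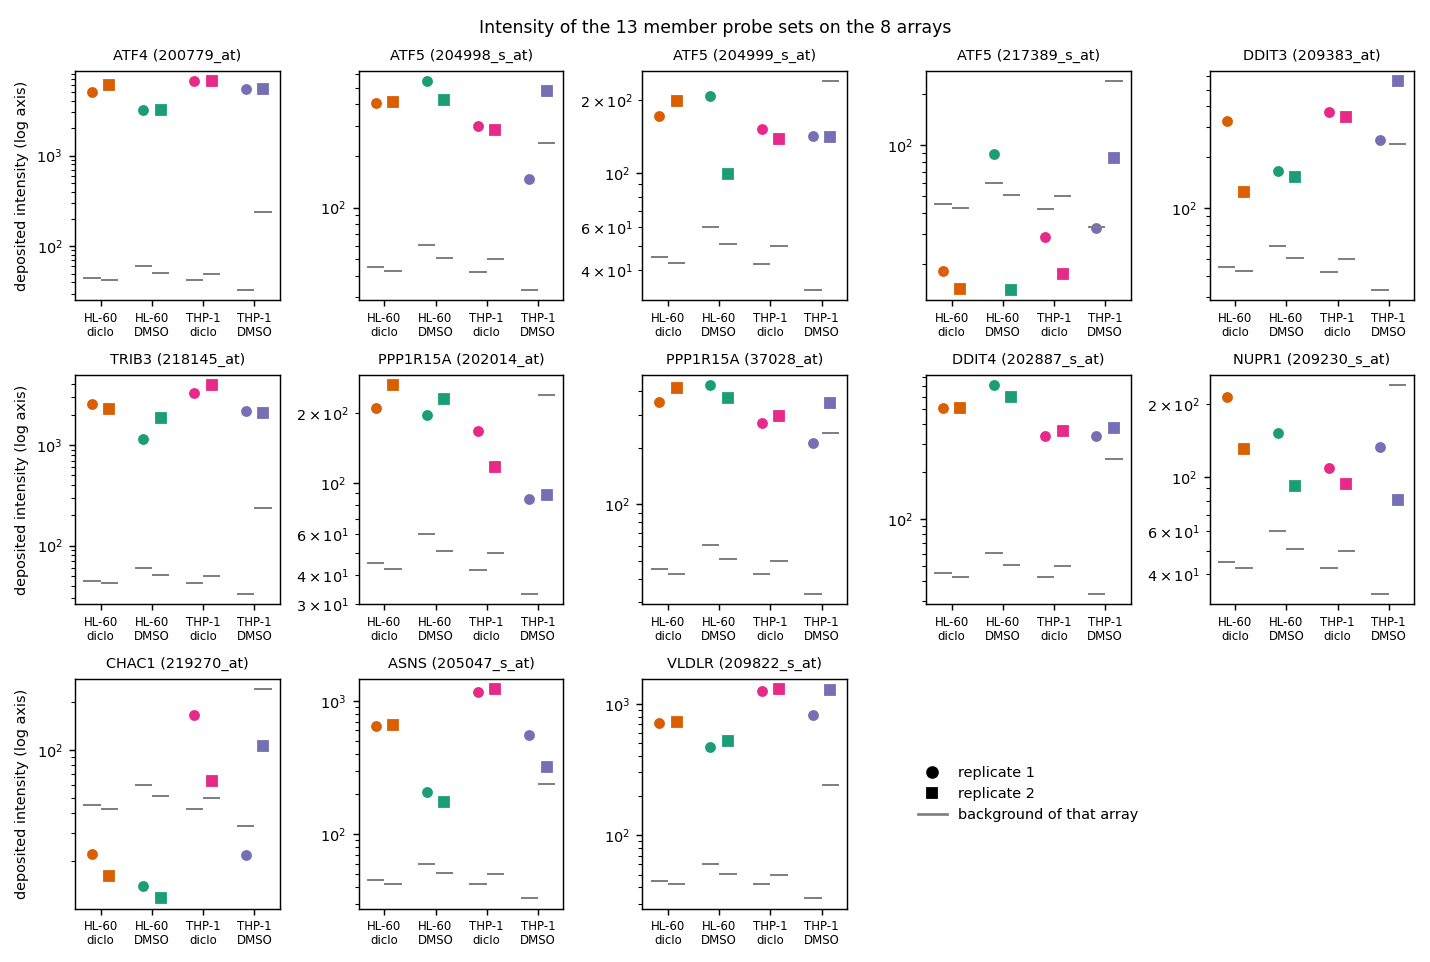
Deposited intensity (log axis) of each of the 13 probe sets on the 8 arrays, by group, with circles for replicate 1, squares for replicate 2 and grey lines for the background of that array. The diclofenac points of ASNS and TRIB3 sit above the DMSO points in both lines, and the background line of THP-1 DMSO replicate 2, at 239, is the highest.

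TRIB3 is a pseudokinase that ATF4 and DDIT3 induce and that in turn damps ATF4. Its probe set 218145_at read 2567.9 and 2264.3 in HL-60 with diclofenac, against 1137.7 and 1836.1 with DMSO. THP-1 gave 3250.4 and 3912.0 with diclofenac, against 2158.8 and 2080.9 with DMSO. Diclofenac arrays lay above DMSO arrays in both lines with no overlap, and THP-1 with diclofenac was the highest group. For HL-60 this was a log2 change of 0.71 ± 0.20, a fold of 1.64, and for THP-1 one of 0.61 ± 0.20, a fold of 1.53 (0.75 ± 0.24 when DMSO replicate 2 was left out). HL-60 with diclofenac and THP-1 with DMSO, the middle groups in the order, overlapped.

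PPP1R15A, also called GADD34, closes the response by bringing protein phosphatase to eIF2. Its probe set 202014_at read 209.5 and 263.4 in HL-60 with diclofenac, against 196.4 and 229.5 with DMSO. The THP-1 readings were 166.5 and 117.2 with diclofenac, against 85.5 and 89.0 with DMSO, of which replicate 2 was under its array's background. The HL-60 groups overlapped and the THP-1 groups did not. By log2 change this was 0.21 ± 0.39 for HL-60 and 0.80 ± 0.39 for THP-1, the second being 0.41 ± 0.31 when DMSO replicate 2 was left out. The second probe set, 37028_at, read 350.1 and 419.7 in HL-60 with diclofenac, against 431.4 and 367.5 with DMSO, and 271.8 and 297.4 in THP-1 with diclofenac, against 212.1 and 347.0 with DMSO. It gave -0.01 ± 0.22 in HL-60, which became 0.11 under median centring, and 0.27 ± 0.22 in THP-1. Both probe sets read lower in THP-1 than in HL-60 under either treatment.

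DDIT4, also called REDD1, holds back the growth kinase mTORC1 under stress. Its probe set 202887_s_at read 508.3 and 505.2 in HL-60 with diclofenac, against 710.1 and 600.3 with DMSO. In THP-1 it read 337.6 and 361.2 with diclofenac, against 334.9 and 381.0 with DMSO. HL-60 with diclofenac was below HL-60 with DMSO with no overlap, the direction opposite to ATF4, TRIB3 and ASNS, and the THP-1 groups overlapped. The log2 change was -0.30 ± 0.20 in HL-60. For THP-1 it was 0.18 ± 0.20, or 0.02 ± 0.16 when DMSO replicate 2 was left out, and -0.03 on the deposited scale. HL-60 with DMSO was the highest group, and both THP-1 groups were below both HL-60 groups.

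NUPR1 is a small chromatin-associated stress protein. Its probe set 209230_s_at read 214.6 and 131.1 in HL-60 with diclofenac, against 151.6 and 92.1 with DMSO. Readings in THP-1 were 109.4 and 94.0 with diclofenac, against 133.9 and 80.6 with DMSO, of which replicate 2 was under its array's background. The deposited values overlapped in both lines, and replicate 1 was the higher array of every pair. Log2 changes were 0.49 ± 0.48 for HL-60 and 0.32 ± 0.48 for THP-1. The second was -0.36 ± 0.33 without DMSO replicate 2 and -0.03 on the deposited scale, so it had no settled sign.

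ASNS, the asparagine synthetase, had the largest change of the 13 probe sets in both lines with all arrays in the fit. Its probe set 205047_s_at read 650.7 and 653.9 in HL-60 with diclofenac, against 208.1 and 173.2 with DMSO. In THP-1 it read 1172.1 and 1217.2 with diclofenac, against 556.2 and 321.4 with DMSO. Every diclofenac array lay above both DMSO arrays of its line, and HL-60 with diclofenac was also above THP-1 with DMSO. That is a log2 change of 1.58 ± 0.35 for HL-60, a fold of 2.98, and of 1.61 ± 0.35 for THP-1, a fold of 3.06. With THP-1 DMSO replicate 2, the lower of its pair, left out, these were 1.65 ± 0.11 and 1.00 ± 0.13, and the THP-1 fold was then 2.01. The shared error with all arrays held the THP-1 DMSO pair (SD 0.90), while HL-60 had SDs of 0.04 with diclofenac and 0.00 with DMSO.

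CHAC1, which breaks down glutathione in the cytosol and is one of the more specific ATF4 targets, was dim. Its probe set 219270_at read 22.0 and 16.2 in HL-60 with diclofenac, against 14.0 and 11.7 with DMSO, all below the background of their arrays. In THP-1 it read 165.6 and 63.7 with diclofenac, against 21.8 and 105.2 with DMSO. It exceeded the background on both THP-1 diclofenac arrays and on no other array, and the 105.2 of THP-1 DMSO replicate 2 was below the 239 of that array's own background. THP-1 with diclofenac was at least 1.3-fold above THP-1 with DMSO, as the diclofenac mean against the higher, on each DMSO array, of the probe set's own signal and the lowest signal above background. The measured log2 means were 7.39 and 6.47, and the bound was at least 1.82-fold without THP-1 DMSO replicate 2. Without THP-1 diclofenac replicate 1, the brighter of its pair, the measured change was 0.49 and no bound above 1 was left. For HL-60 no fold is given, since neither group exceeded the background.

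VLDLR, a lipoprotein receptor whose transcript ATF4 induces during ER stress, completes the set. Its probe set 209822_s_at read 709.3 and 729.4 in HL-60 with diclofenac, against 466.4 and 522.4 with DMSO. In THP-1 it read 1253.4 and 1285.4 with diclofenac, against 822.4 and 1279.9 with DMSO. HL-60 with diclofenac lay above HL-60 with DMSO, whereas in THP-1 the reading of DMSO replicate 2 fell between those of the 2 diclofenac arrays. HL-60 had a log2 change of 0.54 ± 0.23 and THP-1 one of 0.20 ± 0.23, or 0.59 ± 0.13 when DMSO replicate 2 was left out and -0.17 when replicate 1 was.

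**Figure D2:**
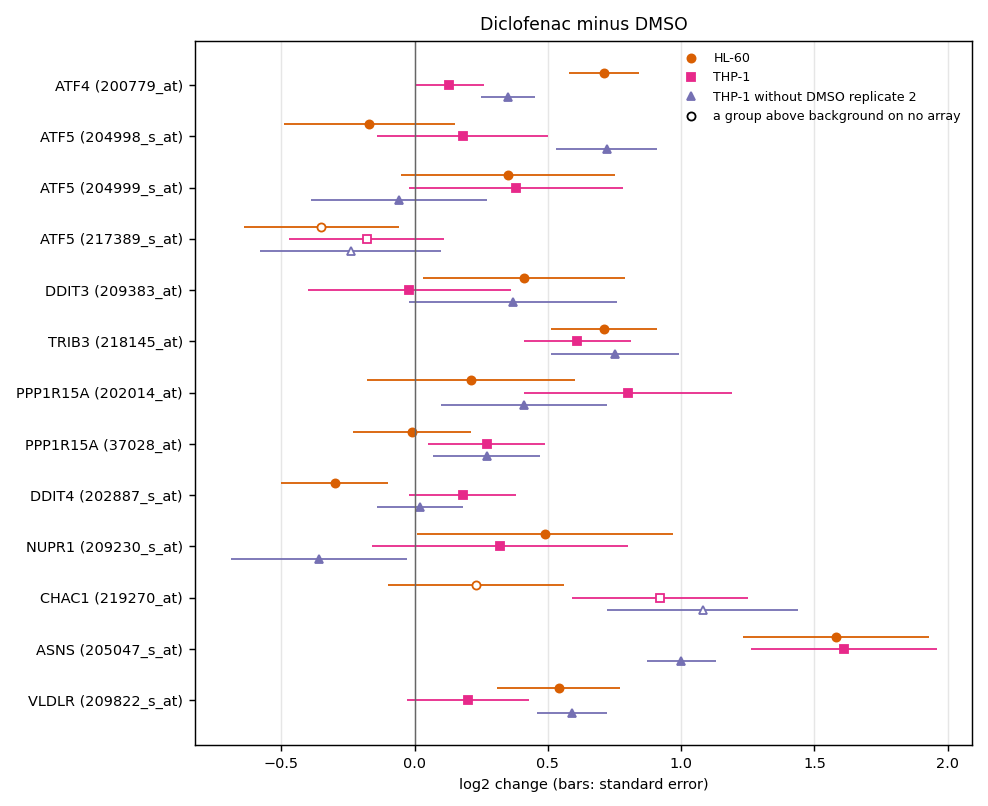
Log2 change, diclofenac minus DMSO, of the 13 probe sets in HL-60, in THP-1, and in THP-1 with DMSO replicate 2 left out. Bars are moderated standard errors, with 2 arrays per group and a spread shared by the 4 groups, and open symbols mark probe sets above background on no array of a group. ASNS lies farthest right, at 1.58 for HL-60 and 1.61 for THP-1, and DDIT4 is at -0.30 in HL-60.

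Across the 13 probe sets the median log2 change was 0.35 for HL-60 and 0.27 for THP-1 (0.37 when DMSO replicate 2 was left out), where all 22215 probe sets had medians of 0.00, -0.02 and -0.01. In HL-60 9 of the 13 were above 0, as were 50.2% of all probe sets, and in THP-1 11 of the 13, as were 48.1% of all. On normalized values, 6 of the 13 had both HL-60 diclofenac arrays above both DMSO arrays, a pattern that 20.1% of all probe sets showed, and 2 had them below, as 19.2% of all did. In THP-1 5 of the 13 were higher without overlap, beside 18.6% of all, and 1 lower, beside 20.9% of all. TRIB3, CHAC1 and ASNS were higher without overlap in both lines, beside 4.30% of all, and none was lower in both, beside 4.06% of all; CHAC1 was below background in HL-60, and its THP-1 groups overlapped on the deposited scale. Since these changes chose the genes, nothing is read from these counts. For scale, limma called 1 probe set (0.00450%) in HL-60 and 30 (0.135%) in THP-1 at the 0.05 threshold for the adjusted p, and 6 (0.0270%) and 61 (0.275%) with THP-1 DMSO replicate 2 left out.

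A scaling that left the deposited values as they were moved the median of all probe sets in THP-1 to -0.20, and median centring moved it to 0.15. Relative to those medians 12 of the 13 were higher under either scaling, against 11 with quantile normalization. DDIT3, DDIT4 and NUPR1 were the THP-1 changes whose sign turned between scalings, and 37028_at of PPP1R15A was the 1 in HL-60. Against the background, 12 of the 13 probe sets exceeded it on both arrays of at least 1 group, the exception being 217389_s_at of ATF5. On all 8 arrays 8 did, as did 41.4% of all probe sets.

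The next comparison asked whether diclofenac changed these transcripts by a different amount in THP-1 than in HL-60, as the THP-1 log2 change minus the HL-60 log2 change. None of the 13 probe sets passed limma's test of that difference, and of all 22215 only 1 did (0.00450%). An unadjusted p under 0.05 was found for 1 of the 13, ATF4, and for 6.95% of all. ATF4 had -0.58 ± 0.19 with a 95% interval wholly below 0 and an adjusted p of 0.57 (-0.37 and 0.40 without THP-1 DMSO replicate 2). The direction was a smaller change in THP-1. CHAC1 had 0.68 ± 0.46 and PPP1R15A 0.59 ± 0.55 by 202014_at, both toward a larger change in THP-1, but CHAC1 was below background in HL-60. DDIT4 had 0.48 ± 0.28, DDIT3 -0.42 ± 0.53 and VLDLR -0.33 ± 0.32.

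ASNS had 0.04 ± 0.50 and TRIB3 -0.10 ± 0.28, and their 95% intervals, -1.10 to 1.17 and -0.74 to 0.55, leave room for differences in either direction. The ASNS difference was -0.64 with an adjusted p of 0.30 once THP-1 DMSO replicate 2 was dropped, and once replicate 1 was dropped instead it was 0.67 with an adjusted p of 0.040. Which of the 2 THP-1 DMSO arrays was kept thus set the sign. With replicate 1 left out and replicate 2 standing alone for its group, ATF4 (-0.79, adjusted p = 0.0079) and VLDLR (-0.70, 0.027) also passed, among 4036 probe sets. For ATF5, PPP1R15A by 37028_at and NUPR1 the differences were within their errors, from -0.17 to 0.35.

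The lines themselves differed in the level of some of these genes. With DMSO, ATF4 and VLDLR were higher in THP-1 than in HL-60 and DDIT4 was lower, which made 3 of 13 probe sets called, against 15.3% of all 22215 (2 higher against 7.59% of all, and 1 lower against 7.72%). On normalized values 6 of the 13 were higher and 4 lower without overlap, where 24.8% and 24.7% of all were. ATF4 was 1.88-fold higher in THP-1 (log2 difference 0.91 ± 0.13, limma adjusted p = 0.0021), with both THP-1 arrays above both HL-60 arrays. It was 0.70 with an adjusted p of 0.0023 without THP-1 DMSO replicate 2. ATF4 was called under 15 of 16 settings, and missed the threshold under median centring (0.54, adjusted p = 0.56).

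VLDLR was 2.13-fold higher in THP-1 (1.09 ± 0.23, adjusted p = 0.013); leaving out THP-1 DMSO replicate 2 gave 0.74 and 0.0086. DDIT4 was 1.90-fold lower in THP-1 (-0.92 ± 0.20, adjusted p = 0.015); leaving out that array gave -0.79 and 0.014. Both calls rested on the pair of HL-60 DMSO arrays. Without HL-60 DMSO replicate 1 the adjusted p was 0.11 for VLDLR (0.99) and 0.13 for DDIT4 (-0.83), and without replicate 2 it was 0.055 (1.19) and 0.060 (-1.02). Under median centring they had 0.75 (0.19) and -1.02 (0.099).

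The other genes did not pass with DMSO in the fit of all arrays. DDIT3 had 1.05 ± 0.38 (adjusted p = 0.11), TRIB3 0.63 ± 0.20 (0.071) and ASNS 0.76 ± 0.35 (0.21), each with both THP-1 arrays above both HL-60 arrays. PPP1R15A had -1.14 ± 0.39 (0.089) by 202014_at and -0.62 ± 0.22 (0.10) by 37028_at, both below without overlap. ATF5 had -0.73 ± 0.32 (0.18) by 204998_s_at, and NUPR1 had -0.36 ± 0.48 (0.67). For these genes the call turned on single arrays or on a setting. On the deposited scale ASNS passed (0.98, adjusted p = 0.013), and with the dimmest 40% of probe sets left out TRIB3 (0.63, 0.044) and PPP1R15A by 202014_at (-1.14, 0.043) did. With THP-1 DMSO replicate 2 left out, ASNS (1.46, adjusted p = 0.00037) and ATF5 by 204998_s_at (-1.30, 0.0034) passed, making 5 of 13, against 18.6% of all. With THP-1 DMSO replicate 1 left out, replicate 2 stood alone for its group and calls rose over all probe sets. Only sizes are therefore given: DDIT3 had 1.40, TRIB3 0.75, PPP1R15A -1.54 by 202014_at and -0.62 by 37028_at, and NUPR1 -1.03. TRIB3 had 0.94 without HL-60 DMSO replicate 2. Both probe sets that remain, 204999_s_at and 217389_s_at of ATF5, were within their errors at -0.29 ± 0.40 and -0.07 ± 0.29. CHAC1 was above background in neither line with DMSO.

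**Figure D3:**
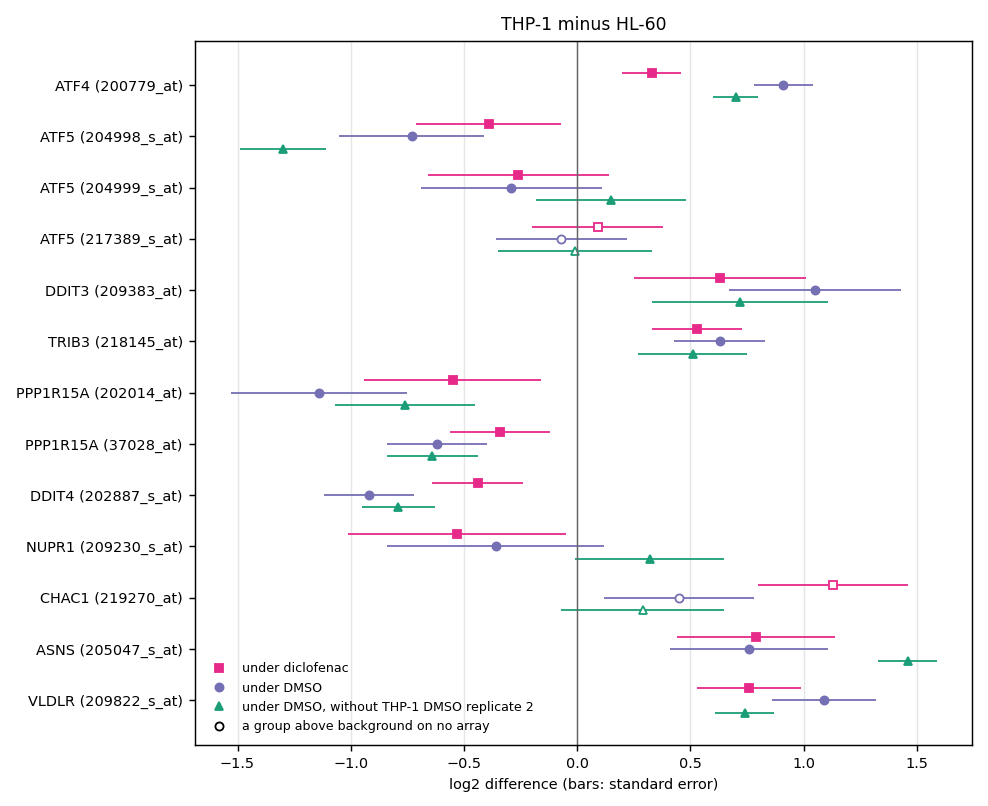
Log2 difference, THP-1 minus HL-60, of the 13 probe sets with diclofenac, with DMSO, and with DMSO when THP-1 DMSO replicate 2 is left out. Bars are moderated standard errors, and open symbols mark probe sets above background on no array of a group. With DMSO, ATF4 is at 0.91 and VLDLR at 1.09, right of 0, and DDIT4 at -0.92, left of it.

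With diclofenac in both lines, none of the 13 probe sets passed the test of THP-1 against HL-60, against 13.0% of all, and 4 of the 13 had an unadjusted p under 0.05, against 22.9% of all. On normalized values 6 were higher and 6 lower without overlap, where 28.6% and 30.3% of all were. CHAC1 was at least 1.59-fold higher in THP-1 (measured log2 difference 1.13 ± 0.33, adjusted p = 0.057), or at least 1.19-fold without THP-1 diclofenac replicate 1. ASNS had 0.79 ± 0.35 (0.22), VLDLR 0.76 ± 0.23 (0.068), DDIT3 0.63 ± 0.38 (0.42), TRIB3 0.53 ± 0.20 (0.14) and ATF4 0.33 ± 0.13 (0.16). On the lower side PPP1R15A had -0.55 ± 0.39 (0.51) by 202014_at, NUPR1 -0.53 ± 0.48 (0.65) and DDIT4 -0.44 ± 0.20 (0.24).

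THP-1 DMSO replicate 2 is in neither group of that comparison but enters the shared estimate of the spread. Without it the same differences were met by smaller errors, and 5 of 13 probe sets passed, against 22.8% of all. ASNS (0.82, adjusted p = 0.0015), VLDLR (0.77, 0.0021), ATF4 (0.34, 0.019) and CHAC1 (1.14, 0.029) were then higher in THP-1, and DDIT4 was lower (-0.46, 0.045). Without THP-1 DMSO replicate 1 the differences were 0.79 for ASNS, 0.75 for VLDLR, 0.34 for ATF4, 1.14 for CHAC1 and -0.44 for DDIT4. TRIB3 had 0.53 without HL-60 DMSO replicate 1, and CHAC1 1.56 without THP-1 diclofenac replicate 2.

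The order of the 4 group means differed between the genes. ATF4, VLDLR and DDIT3 had both THP-1 group means above both HL-60 group means, and CHAC1 was above background in THP-1 with diclofenac only. PPP1R15A by both probe sets, DDIT4 and ATF5 by 204998_s_at had both HL-60 means above both THP-1 means. NUPR1 did too, but HL-60 DMSO overlapped with THP-1, and its THP-1 minus HL-60 difference with DMSO was 0.32 without THP-1 DMSO replicate 2. ASNS and TRIB3 ran instead THP-1 diclofenac, HL-60 diclofenac, THP-1 DMSO and HL-60 DMSO, so that treatment came before line in the order. For ASNS each step in that order was free of overlap. Relative to the mean of the 4 groups, the normalized log2 level of ASNS was 1.20 in THP-1 with diclofenac and -1.17 in HL-60 with DMSO, the widest span of the 13 probe sets.

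**Figure D4:**
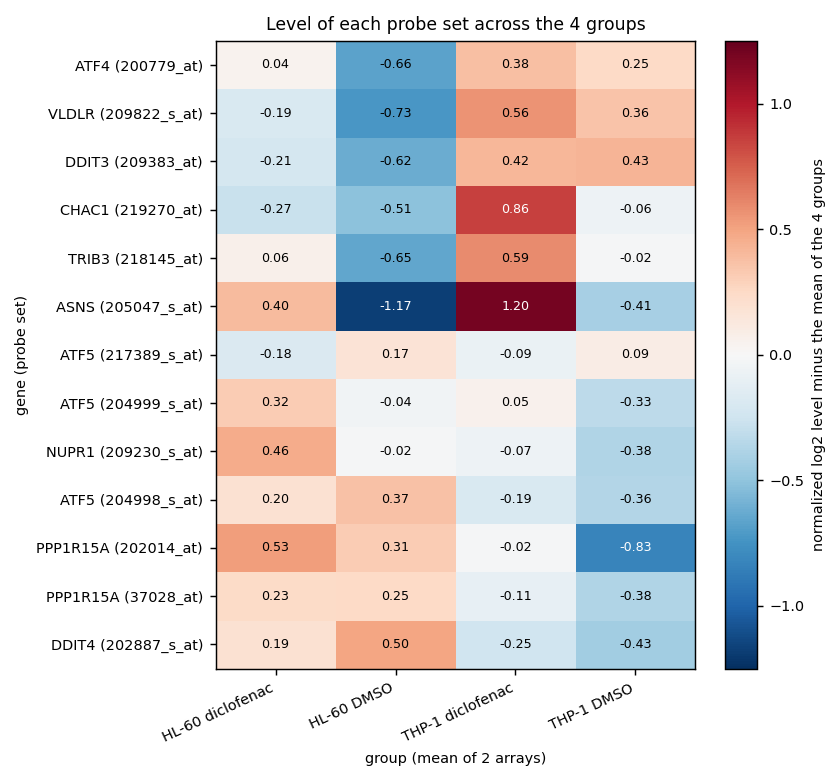
Normalized log2 level of each probe set (rows) in each group (columns, mean of 2 arrays), as the difference from the mean of the 4 groups, red above and blue below. The upper 6 rows, ATF4 to ASNS, are lowest in HL-60 with DMSO, where CHAC1 is below background, and the last 4 rows, ATF5 by 204998_s_at to DDIT4, are higher in HL-60 than in THP-1.

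The 5 other genes whose profile over the 8 arrays was most like the mean standardized profile of the 10 genes were PLIN2, SLC7A11, RAB13, CD55 and PSAP. They came from 2544 candidates above background on all arrays with a range of at least 1 log2 unit, and their Pearson correlations with that mean were 0.961, 0.88, 0.866, 0.863 and 0.842. The 8 points share 2 lines and 2 treatments, so these values describe likeness only. The 10 genes did not share 1 profile: correlations of each with the mean of the others ran from -0.54 for DDIT4 to 0.77 for ASNS. They were also negative for ATF5 (-0.33), PPP1R15A (-0.28) and NUPR1 (-0.08), and positive for the rest. PLIN2, the coat protein of lipid droplets, read 7040.7 and 7634.8 in HL-60 with diclofenac against 2645.0 and 2584.4 with DMSO, and 7395.7 and 8348.2 in THP-1 with diclofenac against 2625.7 and 2246.3 with DMSO. SLC7A11, the cystine importer and a known ATF4 target, read 1119.7 and 1306.4 in HL-60 with diclofenac against 745.9 and 765.0 with DMSO, and 1647.2 and 1248.1 in THP-1 with diclofenac against 748.1 and 658.1 with DMSO. Diclofenac arrays of both genes lay above the DMSO arrays in both lines. RAB13 is a vesicle traffic GTPase, CD55 a complement inhibitor and PSAP the precursor of the lysosomal saposins, with log2 changes of 0.29, 0.78 and 0.47 in HL-60 and 0.69, 1.26 and 0.92 in THP-1.

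The rest of the pathway was described from lists of its steps, with 1 probe set per gene, and the medians are log2 changes beside -0.00 in HL-60 and -0.01 in THP-1 over all 11963 genes. The eIF2 kinases and eIF2 subunits (6 of 7 genes measured) had medians of -0.02 in HL-60 and -0.06 in THP-1, and the 5 subunits of eIF2B, the exchange factor that phosphorylated eIF2 blocks, -0.01 and -0.42 (-0.19 without THP-1 DMSO replicate 2). The phosphatase arm had -0.07 and 0.32 (0.09 without that array). No gene of these 3 lists passed the test of diclofenac against DMSO in either line. The PERK gene EIF2AK3 had -0.20 ± 0.27 for HL-60 and 0.65 ± 0.27 for THP-1 (0.36 without DMSO replicate 2), and EIF2AK1, the heme-regulated kinase HRI, -0.01 ± 0.15 and -0.33 ± 0.15 (-0.10 without that array). Of the phosphatase arm, DNAJC3, an inhibitor of the eIF2 kinases, had -0.07 ± 0.47 and 0.94 ± 0.47 (0.24 without THP-1 DMSO replicate 2), the catalytic subunit PPP1CB 0.24 ± 0.22 and 0.43 ± 0.22 (0.09), and the adaptor NCK1 0.33 ± 0.21 and -0.03 ± 0.21. ER chaperones and targets of XBP1 or ATF6, the other arms of the unfolded protein response, had -0.12 in HL-60, with 4 of 15 above 0, and 0.05 in THP-1. EDEM1, which sends misfolded glycoproteins to degradation, had 0.09 ± 0.22 for HL-60 and 0.89 ± 0.22 for THP-1 (0.65 without DMSO replicate 2). ERN1, the ER stress sensor IRE1, had -0.36 ± 0.42 and -0.49 ± 0.42 (-0.15 without that array). Mitochondrial stress genes (7 of 8 measured, -0.00 and -0.11) and cytosolic heat shock genes (5 of 8 measured, 0.09 and -0.10) were near the medians of all genes. The heat shock genes HSPA1A, HSPA1B and HSPA8 had no probe set annotated to exactly 1 symbol, so they are not among the measured genes.

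Genes of amino acid supply make up 3 further lists. The 11 measured aminoacyl-tRNA synthetases, which load amino acids on tRNA, had a median of 0.36 in HL-60, all 11 above 0, and 0.10 in THP-1, 8 above 0. Serine and one-carbon enzymes had 0.33 and 0.09, and amino acid transporters 0.25 and 0.17 (0.30 without THP-1 DMSO replicate 2). None of these genes passed the test in either line. CTH, which makes cysteine from cystathionine, read 965.8 and 942.5 in HL-60 with diclofenac against 249.1 and 376.3 with DMSO (1.51 ± 0.34, limma adjusted p = 0.63), and 112.3 and 52.5 in THP-1 with diclofenac against 62.1 and 185.8 with DMSO (0.03 ± 0.34). The difference of the CTH changes was -1.48 ± 0.47 (adjusted p = 0.57). PHGDH, the first enzyme of serine synthesis, had 0.76 ± 0.11 in HL-60 (0.14) and 0.02 ± 0.11 in THP-1 (0.95), and PSAT1, the aminotransferase of the same path, 0.72 ± 0.25 (0.94) and 0.58 ± 0.25 (adjusted p = 0.47; the change was 0.17 without THP-1 DMSO replicate 2). WARS1, CARS1 and SARS1, synthetases for tryptophan, cysteine and serine, had 0.70, 0.40 and 0.36 in HL-60 and 0.32, 0.35 (0.14 without THP-1 DMSO replicate 2) and 0.41 in THP-1. The neutral amino acid transporter SLC7A5 had 0.70 and 0.47 (0.27 without that array), and its partner chain SLC3A2 0.25 and 0.66.

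Among 13 bZIP partners of ATF4, the median was -0.00 for HL-60 and 0.46 for THP-1 (0.21 without DMSO replicate 2). CEBPB, the C/EBP protein that pairs with ATF4 on composite elements, rose in THP-1. It was the 1 gene of these pathway lists that passed, but the lists were chosen with earlier results known, so this is a description. It read 2163.3 and 2136.2 with diclofenac against 975.7 and 816.3 with DMSO (1.17 ± 0.11, limma adjusted p = 0.012, and 1.07 with 0.0090 without that array). The call depended on the fit: the adjusted p was 0.58 under median centring (1.58), 0.38 with no intensity trend and 0.32 with THP-1 fitted alone, and 0.065 to 0.29 without any 1 of the 4 HL-60 or 2 THP-1 diclofenac arrays, at changes of 1.15 to 1.18. In HL-60 CEBPB had 0.39 ± 0.11 (0.76), and the difference between the lines, 0.78 ± 0.15, had an adjusted p of 0.32. The AP-1 genes FOS and JUN had 1.92 ± 0.47 (0.25) and 1.42 ± 0.39 (0.31) in THP-1, or 1.26 and 0.71 without that array. Of 13 measured secreted and stress effectors, VEGFA had 0.51 ± 0.54 for HL-60 and 1.83 ± 0.54 for THP-1 (0.79 without DMSO replicate 2), the secreted stress marker GDF15 1.36 ± 0.33 in THP-1 (it was below background in HL-60 with DMSO), and the death receptor TNFRSF10B 0.35 ± 0.48 for HL-60 and 1.13 ± 0.48 for THP-1 (0.23 without that array). None of these effectors passed.

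**Figure D5:**
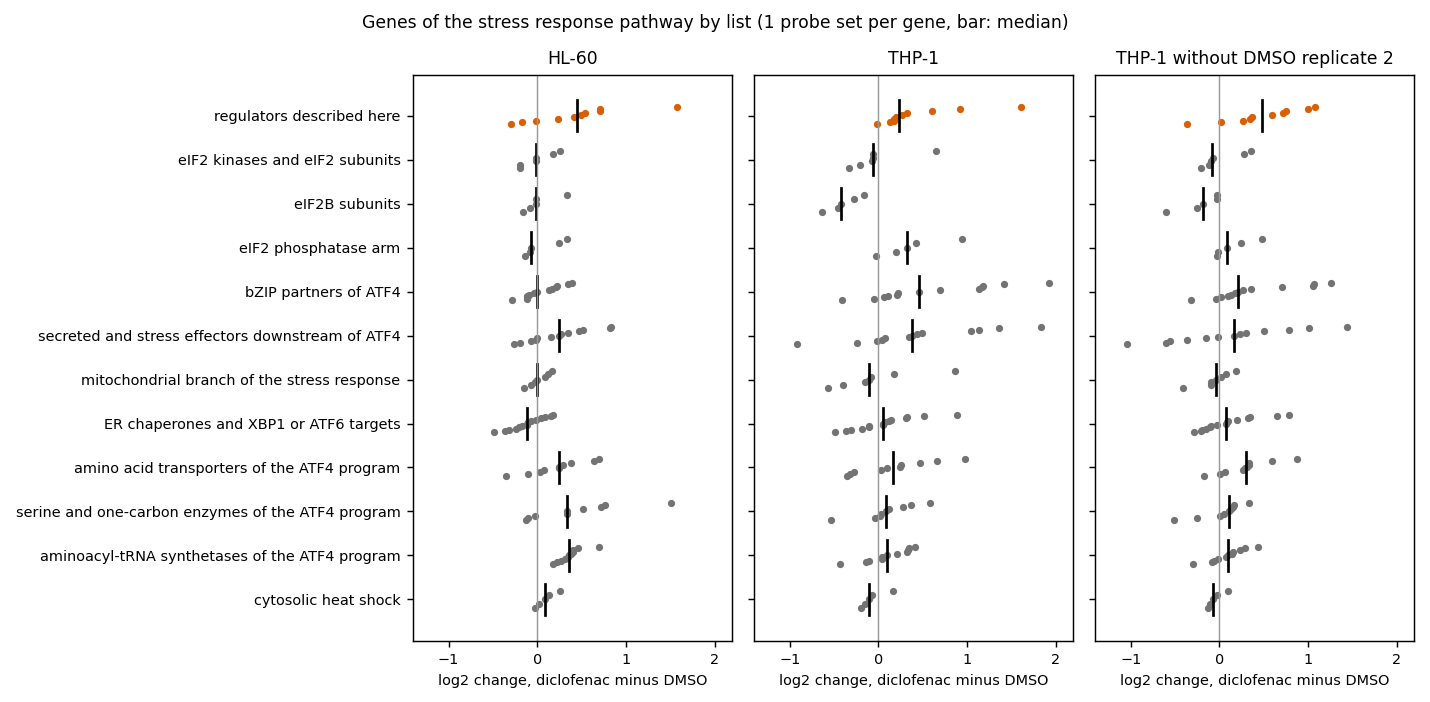
Log2 change, diclofenac minus DMSO, of the genes of each pathway list (1 point per gene, black bar at the median) in HL-60, in THP-1, and in THP-1 with DMSO replicate 2 left out. The medians of the aminoacyl-tRNA synthetases are 0.36 and 0.10 in HL-60 and THP-1, and the genes described here, in orange, reach 1.58 and 1.61.

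Between the lines with DMSO, 34 of the 99 genes of the pathway lists were called, in both directions, beside 18.7% of all 11963 genes. Most list genes exceeded the background on both arrays of a group, and the error in the fit follows intensity. The shares over all genes, here and with diclofenac, are not matched for brightness, and its part was not tested. Of the eIF2 kinases and subunits, EIF2AK3, the kinase PERK, was lower in THP-1 (-1.52 ± 0.27, limma adjusted p = 0.0066), as were EIF2S1 and EIF2S3, whereas EIF2B5 was higher. Of the bZIP partners CEBPB (-1.85 ± 0.11, 1.6e-05) and JUN were lower in THP-1, and CEBPD (4.20 ± 0.31, 5.2e-05), NFE2L2 and CREB1 higher. TXNIP and PMAIP1 were higher and VEGFA lower among effectors, and ATF6 was higher and PDIA3 and PDIA6 lower among ER genes. Transporter genes SLC7A1, SLC38A1 and SLC38A2 were higher and SLC1A4 lower. PHGDH, PSPH and MTHFD2 were higher and ALDH18A1 and CTH lower. SARS1 (2.08 ± 0.10, 8.6e-06), TARS1 and WARS1 were higher, CARS1, GARS1 and NARS1 lower, and of 5 heat shock genes HSPH1, DNAJB1, HSP90AA1 and HSPB1 were higher. CEBPD and ATF6 exceeded the background on 1 of 2 HL-60 DMSO arrays each. EIF2AK3, VEGFA and CTH were below the background of THP-1 DMSO replicate 2, and had differences of -1.27, -1.44 and -1.51 without that array. With THP-1 DMSO replicate 2 left out, EIF2S1, EIF2B5, NFE2L2, CREB1, ALDH18A1, CARS1, GARS1, DNAJB1, HSP90AA1 and the marker genes ELANE and CSF1R no longer passed. EIF2AK2, EIF2B4, LONP1, DNAJB9 and SLC43A1 (lower in THP-1), CEBPA, HSP90B1 and SHMT2 (higher) and the markers MPO and PAX5 passed without that array, which made 33 of 99, beside 22.4% of all genes.

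With diclofenac, 30 of the 99 genes were called between the lines, beside 16.1% of all genes. EIF2S1, EIF2S3, EIF2B1 and EIF2B4 were lower in THP-1 than in HL-60. ATF3 (1.52 ± 0.35, limma adjusted p = 0.022), CEBPA, CEBPD and NFE2L2 were higher and CEBPB lower (-1.07 ± 0.11, 0.00030). GDF15 (1.46 ± 0.33, 0.021), PMAIP1 and TXNIP were higher, as were HSP90B1, ATF6 and EDEM1. Transporters SLC3A2, SLC38A1 and SLC38A2 were higher and SLC1A4 lower, and PYCR1 was higher and CTH lower (-2.85 ± 0.34, 0.00074). SARS1, TARS1 and WARS1 were higher and CARS1, GARS1, NARS1 and YARS1 lower, and HSPH1 and HSPB1 were higher. CEBPD and ATF6 exceeded the background on 1 of 2 HL-60 diclofenac arrays each. All of these are named because they passed, and each also passed with THP-1 DMSO replicate 2 left out. Leaving out that array added EIF2AK2, EIF2AK3, VEGFA, TNFRSF10B, LONP1, SLC7A5, SLC43A1 and ALDH18A1 as lower in THP-1, STC2, PDIA6 and CBS as higher, and the markers MPO, VCAN and PAX5, which made 41 of 99, beside 27.4% of all genes.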

How the data were processed

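The authors deposited 1 intensity per probe set and array, on a linear scale, and per the labels biotin-labelled cRNA from total RNA was hybridised to Affymetrix human arrays. The software behind the signal is not given in the sources used here; the mean without the top and bottom 2% was 500.1 to 500.2 on each array. Genes and lists were chosen with earlier results of these data known.

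Intensities plus 50 were taken to log2 and, since array medians spanned 0.868 log2 units, more than the 0.5 allowed, quantile normalized. Of 22277 probe sets 62 controls were left out; annotation gave 1 symbol for 19064, several for 1043 and none listed for 2108. A linear model of the 4 groups was fitted to the 8 arrays in R 4.3.3 with limma 3.58.1 (4 residual and 4.41 prior degrees of freedom, intensity trend). The Benjamini-Hochberg adjustment ran over all 22215 probe sets, with a threshold of 0.05. The method was tested on simulated data. Errors are moderated SEs, and the number of arrays limits precision. A gene of a list was represented by its probe set of highest mean log2 value, among those annotated to exactly 1 symbol. A gene with no such probe set was counted as not measured. Named were all members, up to 3 genes per list with the largest mean change, list genes that passed, and 5 genes by likeness. Replicate numbers paired no arrays (correlation of deviations -0.00 in HL-60, -0.01 in THP-1), so no block was fitted. Alternatives were the deposited scale, median centring, an offset of 16 or none, leaving out the dimmest 40% of probe sets, no trend, a replicate block, each line alone and each array left out. Figures used matplotlib 3.10.9 in Python 3.11.15.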

Additional observations from a re-analysis of the deposited data

How the results depend on the processing

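With 2 arrays per group, each difference rests on few degrees of freedom, and THP-1 DMSO replicate 2 has less signal over background than the others. Median centring removed every call among these genes (0 of 13 between lines with DMSO, against 3) and lowered the calls over all probe sets to 0 in HL-60, 0 in THP-1, 0 for the difference, 1147 between lines with DMSO (3402) and 1028 with diclofenac (2890). The deposited scale gave 2, 51 and 2 calls in HL-60, in THP-1 and for the difference. Between lines it called 4 of the 13 with DMSO (ASNS added), among 2921 of all 22215 probe sets. With diclofenac it called 2 of the 13, ASNS and VLDLR, among 2789 of all 22215. Leaving out the dimmest 40% gave 3 in HL-60 and 53 in THP-1. That filter also removed CHAC1 and 217389_s_at of ATF5. Of the members that stayed, 5 were called between lines with DMSO (TRIB3 and PPP1R15A by 202014_at added), among 3789 calls in all. With diclofenac 1 was called (VLDLR), among 3138 calls in all. No intensity trend gave 0, 0 and 0 for HL-60, THP-1 and the difference, and each line fitted alone gave 3 and 0. The replicate block gave 0 calls for the difference and 2942 and 2449 between lines with DMSO and diclofenac; it changed no call among the 13. The causes were not tested.

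Leaving out 1 array in turn, with a lone array assumed to vary like the other groups, gave 0 to 11 calls in HL-60, 0 to 6898 in THP-1, 0 to 4036 for the difference, 1693 to 9093 between lines with DMSO and 1260 to 5098 with diclofenac, and of the 13 probe sets 0 to 3, 1 to 8 and 0 to 5 in the last 3. The highest counts in each were without THP-1 DMSO replicate 1. The median change of the probe sets above background ranged from 0.36 to 0.50 in HL-60 and from 0.28 to 0.41 in THP-1 (0.41 and 0.29 with all arrays).

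Among the differences whose sign turned, none was called with all arrays. For the difference of diclofenac changes the deposited scale gave -0.23 for ATF5 204999_s_at, -0.02 for ATF5 217389_s_at, 0.02 for TRIB3 and -0.16 for ASNS, and centring gave -0.03 for 204999_s_at and 0.21 for TRIB3. An offset of 16 gave -0.01 for ASNS, and no offset -0.05 for ASNS and 0.02 for NUPR1. Between lines with DMSO, ATF5 217389_s_at had 0.16 on the deposited scale and 0.04 with no offset. Leaving out single arrays, that difference of changes spanned -0.16 to 0.90 for ATF5 204998_s_at, -0.42 to 0.47 for 204999_s_at, -0.25 to 0.59 for 217389_s_at, -0.89 to 0.05 for DDIT3, -0.42 to 0.22 for TRIB3, -0.87 to 0.51 for NUPR1, -0.64 to 0.67 for ASNS and -0.70 to 0.04 for VLDLR. Between lines with DMSO it spanned -0.73 to 0.15 for ATF5 204999_s_at, -0.50 to 0.34 for 217389_s_at and -1.03 to 0.32 for NUPR1. Of the values of the 13 probe sets in tested comparisons, 247 of 267 under other settings and 269 of 312 with 1 array left out kept direction and call.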
